A study of Arabidopsis thaliana with 84 samples.

Results

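The response of sorted epidermal and cortical root cells to nitrate was measured on 9 of the 84 Affymetrix ATH1 arrays of an Arabidopsis thaliana study of nitrogen responses across root cell types. The arrays were chosen by the sample titles that name the epidermis and cortex (EpiC), and 6 nitrate arrays were set against 3 potassium chloride (KCl) arrays. All plants were Col-0, grown hydroponically for 12 days with 0.5 mM ammonium succinate as the nitrogen source and 3 mM sucrose. At dawn KNO3 or, for the controls, KCl was added to 5 mM for 2 h. In 3 nitrate samples KNO3 stayed in the solution of wall-digesting enzymes that freed the cells (continuous), in 3 it did not (transitory), and both kinds were pooled. The cells of all 9 samples were then sorted by fluorescence and their RNA, 50 ng a sample, was labelled by the two-cycle protocol. Which marker line reported the EpiC cells is not given in the sources used here. Groups were taken from the titles, because the source names of all 9 samples call them continuous nitrate, the KCl samples included. The titles number the samples as biological replicates without saying what was independent. P-values measure the spread within 18 groups of 3 over all 54 sorted arrays, other populations included, unless another fit or test is named.

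Nitrate is taken up by transporters of the root surface, reduced to ammonium through nitrite and then built into glutamine. Besides being a nutrient it is a signal, which acts through NLP transcription factors and a second layer of regulators that includes the GARP-family HHO proteins. Reduction draws on electrons that a root without light supplies largely through the oxidative pentose phosphate pathway. The epidermis and cortex are the outer tissues of the root, and the first living cells that external nitrate meets. Photosystems, light-harvesting proteins and the enzymes of the Calvin cycle are the machinery of green tissue, and root plastids usually hold little of it.

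The cell-type label could be checked with 3 epidermal and 3 cortical markers that the array annotation names. None differed between nitrate and KCl at an adjusted p under 0.05. In KCl the root-hair expansin EXPA7 stood at -1.42 against the mean of the other 4 sorted populations (adjusted p = 0.198), EXPA18 at -0.16 and TRY, a MYB protein of epidermal patterning, at -0.37. The cortical transcription factor JKD stood at 0.43 (adjusted p = 0.53), AED3 at 0.61 and CO2 at -0.31. In nitrate AED3 was higher in EpiC by 1.21 (adjusted p = 0.00486), while JKD stood at 0.007 and CO2 at 0.07. The 3 epidermal markers had values below 0 in nitrate as well, with EXPA7 at -1.25 (adjusted p = 0.0505), TRY at -0.95 (0.106) and EXPA18 at -0.37 (0.283). None of the 6 set these cells apart in KCl, so EpiC is used here as the name of the sorted population and not as a checked identity. The summed level of the 3 cortical markers was 8.40 to 8.62 on the log2 scale in KCl and 8.68 to 9.14 in nitrate, without overlap. Each of these 3 markers alone had overlapping arrays. Of all probe sets tested, 1.46% had every nitrate array above every KCl array. The summed level of the 3 epidermal markers was 8.21 to 9.81 in KCl and 7.88 to 9.996 in nitrate. The single named marker of the lateral root cap, RCPG, read 5.32 to 5.96 in KCl and 5.12 to 6.23 in nitrate. That of the endodermis, GSO1, read 7.25 to 8.43 and 7.81 to 8.84, and that of the stele, LHW, 9.45 to 11.2 and 9.27 to 10.8. The part of these marker levels in the results below was not tested. In bulk RNA of sorted cells, fewer cells of a type and less RNA per cell cannot be told apart.

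All levels are quantile-normalized log2 signals of 1 probe set, for which the median over each array was 6.85, and differences are log2 differences of nitrate minus KCl. The trimmed mean signal was 174 to 184 on the KCl arrays and 175 to 202 on the nitrate arrays (two-sided exact permutation p = 0.833). The 3' minus 5' difference of the GAPDH control is a sign of RNA integrity and labelling length. It read 4.12, 3.82 and 3.50 in KCl, 4.02, 3.42 and 2.88 in transitory and 3.395, 3.485 and 2.58 in continuous nitrate. All nitrate arrays but transitory replicate 1 were thus below all KCl arrays. The exact permutation p of the mean difference was 0.131, and the smallest possible was 0.0238. With this measure as a covariate 25 probe sets rose and 95 fell in pooled nitrate, at an adjusted p under 0.05. Correlations between 2 EpiC arrays ran from 0.784 to 0.957, and no 2 arrays were identical.

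Pooled nitrate changed 115 of 19258 probe sets tested, 0.597% of them, at a Benjamini-Hochberg adjusted p under 0.05. The 25 that rose (0.13%) did so by 0.99 to 3.40, with a median of 2.11, and the 90 that fell (0.467%) had differences of -4.49 to -1.05, with a median of -2.10. At an unadjusted p under 0.05 the count was 593, against 963 that chance alone would give. The annotation pairs 11 of the risen and 28 of the fallen probe sets with 1 gene each. The risen genes held the regulator HHO1, the transporter NPF4.3, the phosphoglycerate mutase PGM and 8 loci without a symbol. The fallen genes held 9 nuclear genes for photosystems, light harvesting, carbon fixation and the plastid ATP synthase. Without KCl replicate 2 the count was 52, of which 14 rose, and without KCl replicate 3 it was 62, of which 15 rose. A fit of the EpiC arrays alone passed 106 probe sets, 44.3% of them rises, where the fit of 54 sorted arrays had 21.7%.

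Among the nitrate regulators, HHO1 (AT3G25790), a GARP-family transcription factor, rose 6.41-fold. It read 5.33, 6.43 and 5.92 on the KCl arrays, 7.98, 8.54 and 8.05 in transitory and 8.80, 9.46 and 8.61 in continuous nitrate. All 6 nitrate arrays were above all 3 KCl arrays, and the 3 continuous arrays were above the 3 transitory ones. The difference was 2.68 (SE 0.641, adjusted p = 0.0269). The call was lost without KCl replicate 1 (0.294), 2 (0.086) or 3 (0.167), without transitory replicate 2 (0.0688) and without continuous replicate 2 (0.0745).

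The relatives HHO2 (AT1G68670) and HHO3 (AT1G25550) had smaller differences. HHO2 read 8.48, 8.93 and 8.60 in KCl, and 9.32, 9.57 and 9.85 were its lowest, median and highest nitrate values. HHO3 read 8.92, 9.26 and 8.95 in KCl, and its nitrate values ran from 9.64 through a median of 9.77 to 10.2. Both sets of 6 were above the KCl arrays, as were those of 1.46% of all probe sets tested. The differences were 0.89 (SE 0.402, adjusted p = 1) and 0.83 (SE 0.331, adjusted p = 0.867), which did not pass. With array weights HHO3 passed (0.0431). HHO5 stood at -0.02 and NRG2, a regulator of nitrate signalling, at -0.13, with arrays that overlapped. Of 18 regulators listed, 5 could be named on the array, 1 rose and none fell, where 0.13% of all probe sets rose. The median difference of the 5 was 0.83, and that of all probe sets was 0.002.

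Of 10 nitrate transporters listed, NPF4.3 and NPF6.2 could be named. NPF4.3 (AT1G59740) belongs to the family of nitrate and peptide transporters. Its values were 6.46, 6.64 and 6.06 in KCl, 8.81, 8.90 and 8.92 in transitory and 9.09, 9.33 and 8.79 in continuous nitrate. The lowest nitrate array lay 2.15 above the highest KCl array, and the 2 nitrate treatments overlapped. It rose by 2.59 (SE 0.363, adjusted p = 8.28e-05), 6.01-fold, and passed in all 19 alternatives. NPF6.2 read 6.31, 6.46 and 6.75 in KCl, and 5.65, 5.87 and 6.64 were its lowest, median and highest nitrate values. Its arrays overlapped, and the difference was -0.46 (SE 0.378, adjusted p = 1). Of the 15 genes listed for the assimilation of nitrate and ammonium, nitrate reductase and nitrite reductase included, none could be named from the annotation used here, so their response was not analysed here.

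For the supply of reductant, the annotation gave 3 isoforms of 6-phosphogluconate dehydrogenase, an enzyme of the oxidative pentose phosphate pathway that makes NADPH. PGD3 (AT5G41670) read 8.60, 8.88 and 9.57 in KCl, 12.0, 11.3 and 12.0 in transitory and 11.6, 11.3 and 11.9 in continuous nitrate. PGD1 (AT1G64190) read 9.99, 10.1 and 10.5 in KCl, with nitrate values from 11.7 through a median of 11.9 to 12.2. In both genes every nitrate array was above every KCl array, by at least 1.73 for PGD3 and 1.25 for PGD1. The differences were 2.67 (SE 0.743) for PGD3 and 1.76 (SE 0.571) for PGD1. With the spread estimated over all 54 sorted arrays their adjusted p-values were 0.115 and 0.324, and with only the EpiC arrays 0.000985 for each. PGD2 (AT3G02360) had overlapping arrays and a difference of -0.34 (adjusted p = 1).

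PGM (AT1G78050), a phosphoglycerate and bisphosphoglycerate mutase of carbon metabolism, rose 5.14-fold. Its values were 7.38, 7.71 and 7.51 in KCl, 9.86, 9.56 and 9.25 in transitory and 10.5, 10.3 and 9.86 in continuous nitrate. The groups of nitrate and KCl did not overlap, and the lowest nitrate value stood 1.55 above the highest KCl value. The difference was 2.36 (SE 0.44, adjusted p = 0.00126), past the threshold in all 19 alternatives.

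The other risen genes have a locus identifier alone in the annotation. AT1G80380 is glycerate kinase in the gene lists, and no role is given to the rest here. AT1G80380 read 7.01, 8.01 and 7.71 in KCl, with 9.62, 10.4 and 10.7 as its lowest, median and highest nitrate values. AT1G16170 read 6.77, 7.38 and 6.40 in KCl, and 9.15, 9.82 and 10.3 in the same order in nitrate. AT5G19970 read 6.25, 6.21 and 6.57 in KCl, 8.17, 8.11 and 8.13 in transitory and 8.74, 8.79 and 8.77 in continuous nitrate. In each of the 3 the nitrate arrays lay apart from the KCl arrays, and in AT5G19970 the continuous arrays also lay apart from the transitory ones. They rose by 2.64 (SE 0.474, adjusted p = 0.000875), 2.95 (SE 0.559, adjusted p = 0.00159) and 2.11 (SE 0.371, adjusted p = 0.000754). AT2G48080 rose by 1.79 (adjusted p = 0.001) and AT5G26200 by 1.71 (0.000875), and these 5 loci passed in every alternative. AT3G07350 rose by 2.22 (0.0278), AT1G14340 by 1.69 (0.0244) and AT5G26010 by 1.34 (0.0332), and each lost the call on leaving out any of 7 of the 9 arrays. The genes just past the threshold on the other side, given as a description, were AT5G52050 at 1.79 (0.0524) and AT4G25835 at 1.72 (0.0557).

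**Figure D1:**
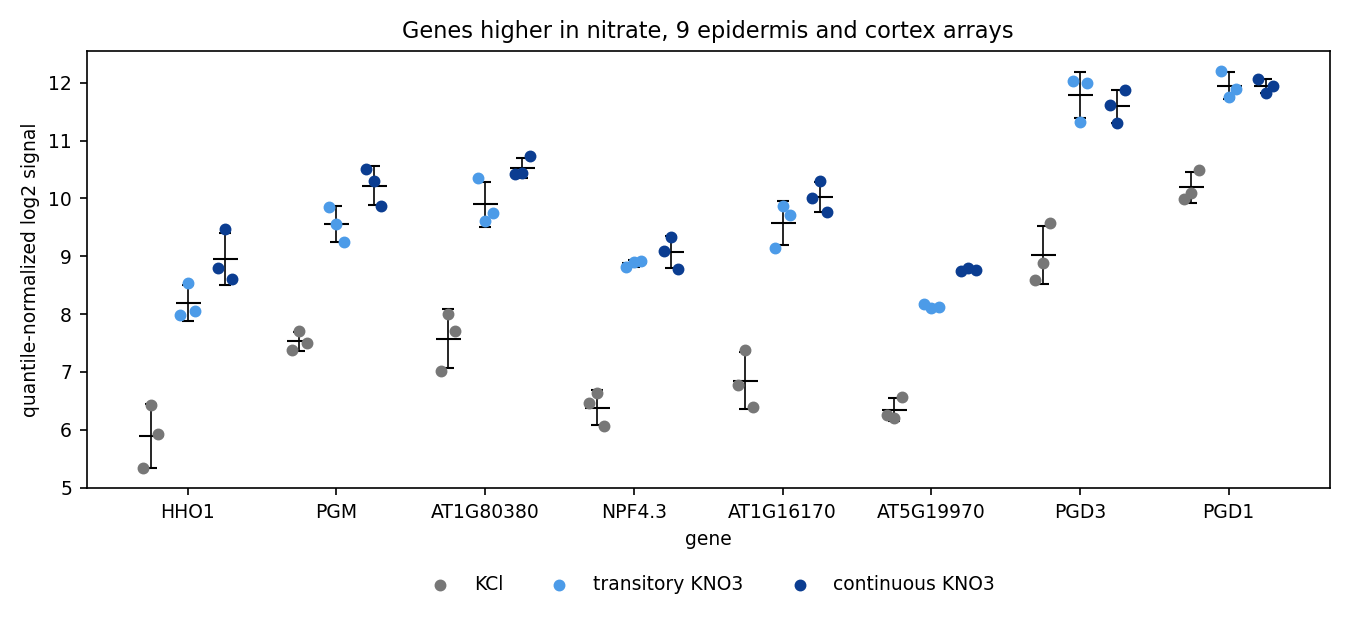
Quantile-normalized log2 signal (vertical axis) of 8 genes (horizontal axis) on each of the 9 EpiC arrays, in grey for KCl, light blue for transitory and dark blue for continuous nitrate, with group means and SD (n = 3) in black. In all 8 genes every nitrate array is above every KCl array, as for HHO1, where 7.98 is the lowest nitrate value and 6.43 the highest KCl value. Apart from PGD1 and PGD3, the genes were named by a rule that asks for this order, so it is no further evidence.

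Nuclear genes of photosynthesis were among those that fell. Of 8 named genes for photosystems and light harvesting, from 38 listed, 5 fell and none rose, where 0.467% of all probe sets tested fell, and in all 8 every nitrate array was below every KCl array, a pattern shown by 1.84% of all probe sets tested. The median difference of the 8 was -2.41, against 0.002 over all probe sets. All 4 named genes for carbon fixation and the plastid ATP synthase, from 11 listed, fell, beside the same 0.467% of all probe sets, with a median of -2.39. The list was composed with earlier results of these arrays known, so the count is a description of these genes.

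In photosystem I, the stromal subunit PSAE-1 read 9.66, 10.3 and 9.73 in KCl, 8.28, 5.76 and 6.65 in transitory and 6.59, 6.70 and 6.80 in continuous nitrate. PSAN, a lumenal subunit, read 6.41, 8.65 and 8.11 in KCl and 4.57, 5.28 and 6.16 as its lowest, median and highest values in nitrate. Both were lower on every nitrate array, PSAN by a margin of 0.245 between KCl replicate 1 and transitory replicate 1. PSAE-1 fell by 3.11 on the log2 scale (SE 0.58, adjusted p = 0.00126), an 8.63-fold difference, and PSAN fell by 2.38 (SE 0.543, adjusted p = 0.016). The call of PSAN was lost without KCl replicate 2 (0.496), without KCl replicate 3 (0.213) and with only the EpiC arrays (0.0598).

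In photosystem II, PSBW, a small subunit of the reaction centre complex, read 10.2, 10.6 and 10.3 in KCl, 9.55, 6.83 and 6.97 in transitory and 7.69, 7.71 and 7.19 in continuous nitrate. Transitory replicate 1 was nearest to the KCl arrays. PSBW fell by 2.72 (SE 0.498, adjusted p = 0.001), a call lost with only the EpiC arrays (0.0564). PSBY stood at -1.90 (SE 0.54, adjusted p = 0.131) and the assembly factor PSB27 at -1.38 (SE 0.414, adjusted p = 0.206), both with all nitrate arrays below the KCl arrays and neither past the threshold. With only the EpiC arrays PSBY passed (0.0185), and with nitrate as 1 group of 6 in that fit both passed (0.0102 and 0.0378). Array weights also gave PSBY 0.00984 and PSB27 0.0115, and PSB27 passed with array signal (0.0138) or the GAPDH difference (0.0102) as a covariate.

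The 3 named light-harvesting genes encode isoforms of CP29, a minor antenna protein of photosystem II. LHCB4.1 read 8.87, 9.92 and 9.40 in KCl, with 6.21, 6.80 and 7.80 as its lowest, median and highest nitrate values. LHCB4.2 read 8.46, 9.69 and 9.57 in KCl and 6.23, 6.90 and 7.26 in nitrate. LHCB4.1 fell by 2.52 (SE 0.465, adjusted p = 0.00112) and LHCB4.2 by 2.43 (SE 0.439, adjusted p = 0.000902), in all 19 alternatives. LHCB4.3 read 6.51 to 6.64 in KCl and 5.97 to 6.41 in nitrate, a difference of -0.36 (SE 0.2, adjusted p = 1).

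Among the enzymes of carbon fixation, RCA, the activase of Rubisco, read 9.47, 10.2 and 9.82 in KCl, 8.62, 6.67 and 7.02 in transitory and 7.26, 7.17 and 6.86 in continuous nitrate. PRK, phosphoribulokinase, read 7.86, 9.25 and 8.58 in KCl, 6.52, 5.67 and 6.79 in transitory and 6.09, 6.21 and 6.57 in continuous nitrate. SBPASE, sedoheptulose-bisphosphatase, read 8.65, 9.14 and 8.45 in KCl, 7.10, 6.51 and 6.87 in transitory and 6.72, 6.61 and 7.10 in continuous nitrate. Nitrate and KCl arrays lay apart in all 3. RCA fell by 2.56 on the log2 scale (SE 0.416, adjusted p = 0.000452), a 5.91-fold difference, PRK by 2.25 (SE 0.408, adjusted p = 0.000902) and SBPASE by 1.93 (SE 0.31, adjusted p = 0.000421). The call of PRK was lost without KCl replicate 2 (0.0651). ATPC1 (AT4G04640), the gamma subunit of the plastid ATP synthase, read 9.06, 9.94 and 10.005 in KCl and 6.49, 7.002 and 8.30 as its lowest, median and highest values in nitrate, and fell by 2.52 (SE 0.42, adjusted p = 0.000541).

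Averaged over these 12 photosynthesis genes, the EpiC arrays read 8.39, 9.26 and 8.81 in KCl, 7.42, 6.29 and 6.50 in transitory and 6.56, 6.53 and 6.59 in continuous nitrate. KCl replicate 2 was the highest KCl array for 10 of the 12 genes and KCl replicate 1 the lowest for 9. Transitory replicate 1 was the highest nitrate array in the average, by 0.828. In the plastid genome, whose genes encode other subunits of the same complexes, none of 69 named genes passed. The median difference was -0.70, with 65 of 69 below 0, beside a median of 0.002 over all probe sets. The list's median was -1.05 in the pericycle, where 11 of the 69 passed and 23.4% of all probe sets did. It was -0.44 in the lateral root cap, 0.11 in endodermis with pericycle, 0.74 in the stele and 0.55 in unsorted protoplasts. The plastid list was added after its values were seen.

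**Figure D2:**
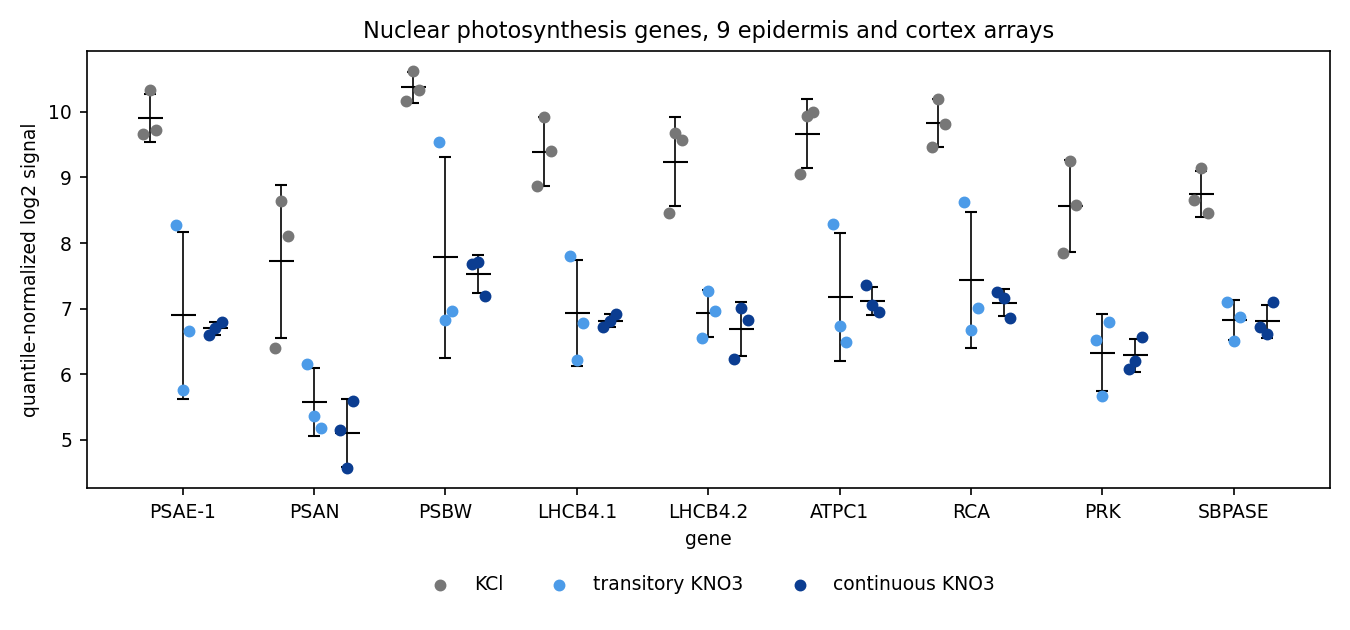
Quantile-normalized log2 signal (vertical axis) of the 9 fallen photosynthesis genes (horizontal axis) on each of the 9 EpiC arrays, in grey for KCl, light blue for transitory and dark blue for continuous nitrate, with group means and SD (n = 3) in black. Every nitrate value is below every KCl value of its gene, and in PSBW and RCA transitory replicate 1, at 9.55 and 8.62, is nearest to KCl. All 9 genes meet a naming rule that asks for nitrate values beyond the KCl values, so that order is no further evidence.

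Other fallen genes with a symbol were fewer. HPR, hydroxypyruvate reductase of photorespiration, fell by 1.95 (SE 0.378, adjusted p = 0.00216). LIL3:2, a light-harvesting-like protein, fell by 1.60 (adjusted p = 0.0183), and AOR, an alkenal and enone oxidoreductase, fell from a mean of 7.63 to 6.13 (adjusted p = 0.0035). All 3 lost the call without KCl replicate 2, with adjusted p-values of 0.116, 0.486 and 0.116, and without KCl replicate 3, with 0.108, 0.165 and 0.0698. With only the EpiC arrays HPR (0.0676) and LIL3:2 (0.134) lost it too. LIL3:2 also lost it with nitrate as 1 group of 6 in that fit (0.0926) and without transitory (0.079) or continuous (0.0713) replicate 3. Chosen after their values were seen, AT1G74470, annotated as geranylgeranyl reductase of chlorophyll and tocopherol synthesis, fell by 1.90 (adjusted p = 0.00641), and AT1G52220, the thylakoid curvature protein CURT1C, by 1.55 (0.0288). AT4G13840, annotated as the wax gene CER26, fell by 1.57 (0.00768) and the beta glucosidase gene BGLU40 from a mean of 7.45 to 6.25 (0.0321). In that order these 4 passed in 17, 8, 14 and 10 of the 19 alternatives. CURT1C was 1 of 12 further thylakoid and photosystem names, a list added after the values were seen, and no other member of it passed, with a median of -0.28.

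Loci without a symbol fell as far. AT2G26500 read 9.29, 10.2 and 9.32 in KCl and 5.25, 6.19 and 7.70 as its lowest, median and highest values in nitrate, and fell by 3.19 (SE 0.54, adjusted p = 0.000573), 9.12-fold. AT1G66100 read 9.88, 9.12 and 8.81 in KCl, 7.38, 5.27 and 6.76 in transitory and 5.89, 6.31 and 7.45 in continuous nitrate. Its lowest KCl array was 1.36 above its highest nitrate array. It fell by 2.76 (SE 0.431, adjusted p = 0.000298), and both loci passed in every alternative. AT3G16530 fell by 2.56 (0.00703) and AT3G47070 fell by 2.19 (0.001), and without KCl replicate 2 their adjusted p-values were 0.0941 and 0.0787. AT3G16530 also lost the call without KCl replicate 3 (0.0563) and with only the EpiC arrays, as 2 nitrate groups (0.105) or 1 (0.0602). The remaining 8 fallen loci, named after their values were seen, had differences from -2.16 in AT5G59540 to -1.14 in AT1G71140 (adjusted p = 0.0426), which was nearest to the threshold. AT5G55050, AT2G42220, AT1G51805 and AT4G09760 among them, at -2.09, -2.10, -2.06 and -1.39, passed in all 19 alternatives. AT5G38980 passed in 17, AT5G59540 in 14, AT5G43450 in 9 and AT1G71140 in 8. The nitrate and KCl arrays of AT5G43450, at -1.73, overlapped.

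In several lists no named member passed in the pooled comparison. Of the chlorophyll synthesis list, which does not hold AT1G74470, PORB stood at 0.08 and HEMA3 at 0.31. In sulfate assimilation and sulfur transfer the sulfite reductase SIR stood at 0.87 (SE 0.466), APS3 at 0.25, APS4 at -0.10 and SUFE2 at -0.90 (adjusted p = 0.791), the last with its nitrate arrays below the KCl arrays. The auxin-conjugating GH3.3, GH3.1 and WES1 stood at -0.48, 0.24 and -0.41, and the lateral root regulator LBD16 at 0.16. Of wound, defence and low-oxygen genes, STZ stood at 0.33, WRKY53 at 0.55, HRA1 at -0.19 and LDH1 at 0.04. All 14 had adjusted p-values of 0.791 or more, and the arrays overlapped in all but SUFE2. LBD29 was below the filter on dim probe sets, and no marker of green shoot tissue among the 5 listed could be named.

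**Figure D3:**
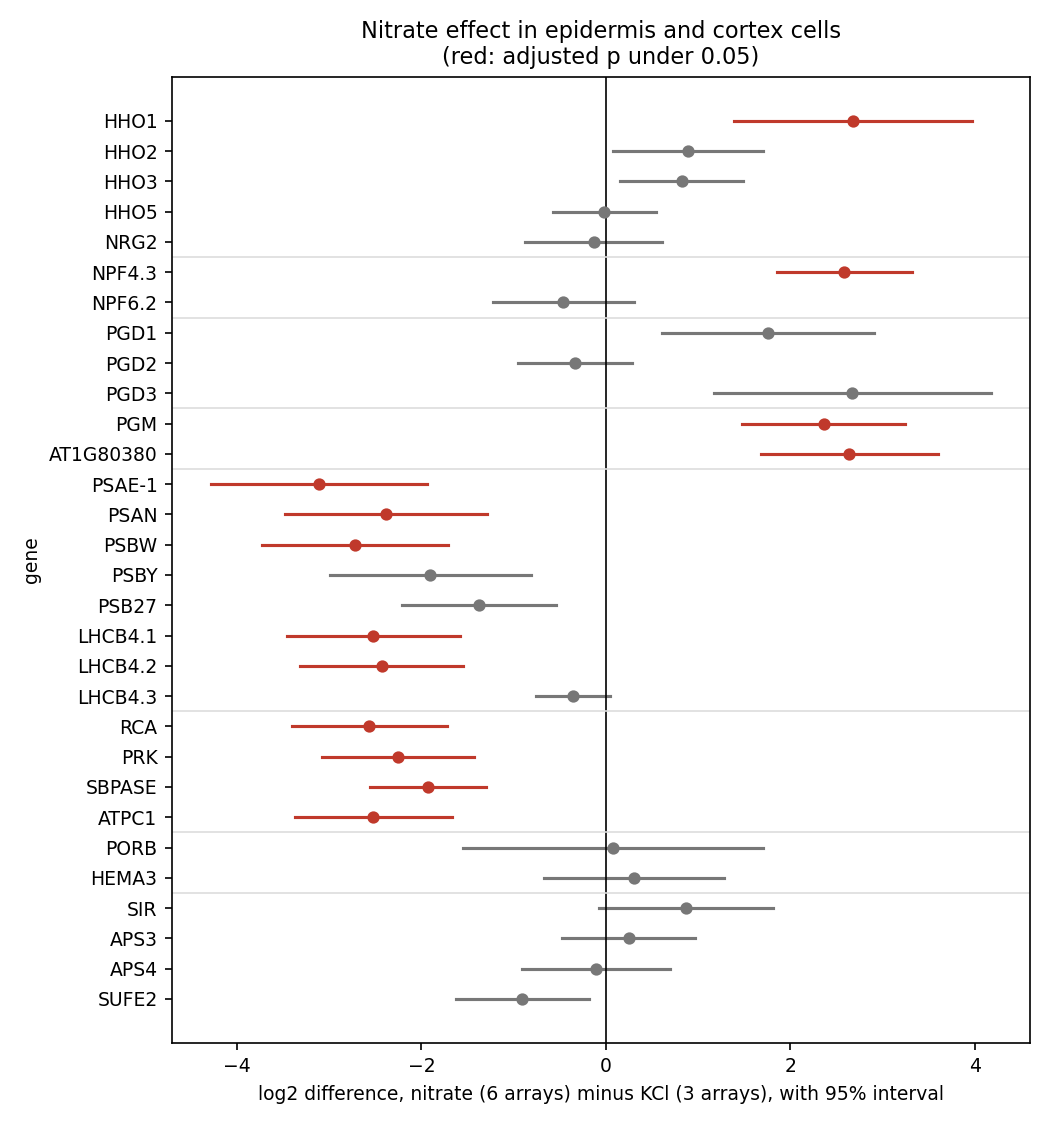
Log2 difference of nitrate (6 arrays) minus KCl (3 arrays), on the horizontal axis, with its 95% interval from the limma fit, for 30 genes in rows, with grey lines between the gene groups and red for an adjusted p under 0.05. HHO1, NPF4.3, PGM and AT1G80380 are red to the right of 0, and 9 photosynthesis genes are red to the left, while PGD1 and PGD3 are grey with intervals above 0.

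Keeping KNO3 in the enzyme solution or leaving it out was meant by the study to show how best to preserve the response while the cells were freed. Each nitrate treatment was compared with the same 3 KCl arrays, so these comparisons share their controls. Continuous nitrate changed 94 probe sets (0.488%), 26 upwards (0.135%) and 68 downwards (0.353%). Transitory nitrate changed 58 (0.301%), 9 upwards (0.0467%) and 49 downwards (0.254%). The balance depended on the arrays from which the spread was estimated. A fit of the EpiC arrays alone gave 46 upwards and 46 downwards for continuous and 33 upwards and 28 downwards for transitory nitrate. HHO1 stood at 3.06 in continuous and 2.30 in transitory nitrate, PGM at 2.69 and 2.03, AT1G80380 at 2.96 and 2.33 and NPF4.3 at 2.68 and 2.49. PSAE-1 stood at -3.21 and -3.01, RCA at -2.74 and -2.39, LHCB4.1 at -2.58 and -2.46 and ATPC1 at -2.55 and -2.49. The transitory count was 0 without transitory replicate 3, 3 without transitory replicate 2, 5 without KCl replicate 2 and 7 without KCl replicate 3. Leaving out continuous replicate 1 gave a continuous count of 46, KCl replicate 3 gave 50 and KCl replicate 2 gave 25.

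Continuous and transitory nitrate themselves differed in 0 of 19258 probe sets (0%) in the limma fit, with 196 at an unadjusted p under 0.05, fewer than the 963 expected by chance. The difference of continuous minus transitory was 0.77 for HHO1, with a 95% interval of -0.73 to 2.26, and 0.66 for PGM, with an interval of -0.36 to 1.69. It was 0.63 for AT5G19970 (-0.23 to 1.496) and 0.63 for AT1G80380 (-0.47 to 1.73). The intervals of the fallen genes were as wide, with RCA at -0.34 (-1.31 to 0.62), PSAE-1 at -0.20 (-1.55 to 1.15) and SBPASE at -0.02 (-0.74 to 0.70). Of the 7 intervals, 6 hold a difference of 1 log2 unit. Their width comes from the spread over all 54 sorted arrays. The SD of AT5G19970 within EpiC was 0.028 in transitory and 0.0276 in continuous nitrate, beside an SE of 0.428 for the difference. Intervals above 0 were those of GH3.1 at 1.297 (0.39 to 2.2003), WRKY53 at 1.16 (0.39 to 1.93) and AT5G26010 at 0.77 (0.008 to 1.54), each with an adjusted p of 1. GH3.1, an auxin-conjugating enzyme, read 6.68, 6.80 and 7.46 in transitory and 8.15, 7.96 and 8.71 in continuous nitrate. The stress-related transcription factor WRKY53 read 9.20, 8.68 and 8.03 in transitory and 10.02, 10.08 and 9.30 in continuous nitrate. In both genes the 3 continuous arrays were above the 3 transitory ones. As both were named for their intervals, this order is no further evidence. The share of all probe sets with this order is not given here, also for HHO1 and AT5G19970.

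Whether the EpiC response differed from that elsewhere in the root was tested as the EpiC difference minus the mean of 4 others, those of the stele (Stele), the lateral root cap (LRC), the pericycle (Peri) and the sort of endodermis with pericycle (EndoP). In this comparison 23 probe sets passed (0.119%), of which 2 were more positive (0.0104%) and 21 more negative (0.109%) in EpiC. NPF4.3 was the named gene on the positive side, with a difference between responses of 2.21 (SE 0.406, adjusted p = 0.011). On the negative side AT1G66100 stood at -3.19 (SE 0.481, adjusted p = 0.000848), AT2G26500 at -2.83 (0.0309), RCA at -2.36 (0.0257), PRK at -2.32 (0.0257), ATPC1 at -2.12 (0.04), AT3G47070 at -2.10 (0.0309) and SBPASE at -1.94 (0.011). AT2G42220, named after its values were seen, stood at -1.97 (0.0308). All 4 genes for carbon fixation and the ATP synthase passed, and none of the 8 for photosystems and light harvesting, where LHCB4.1 stood at -2.25 (0.0651) and PSAE-1 at -2.68 (0.0815). Without KCl replicate 2 the count was 1, AT1G66100, and the other 7 genes named by rule or list had adjusted p-values from 0.0826 for NPF4.3 to 0.715 for AT3G47070. The count was 2 without KCl replicate 3, 4 or 5 without transitory replicate 2 or 3, 5 or 12 without continuous replicate 1 or 2, and 47 without transitory replicate 1.

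The genes HHO1, PGM and AT1G80380 did not pass this test of difference. HHO1 stood at 1.43 in LRC, 1.87 in EndoP, 0.61 in Peri and 1.81 in Stele (SE 0.641 each), and EpiC minus their mean was 1.25 (SE 0.717, adjusted p = 1). PGM stood at 0.85, 1.00, 0.17 and 1.63 in the same order (SE 0.44), and the difference was 1.45 (SE 0.492, adjusted p = 0.845). Of the other risen genes, AT5G26200 stood at 1.78 in LRC (adjusted p = 0.0134), beside 1.71 in EpiC. AT3G07350 stood at 2.51 in Stele (adjusted p = 0.0499), beside 2.22 in EpiC. The remaining named risen genes had their largest difference in EpiC, where all were chosen. Of the 5 nitrate regulators that could be named, 2 passed in Stele, where 0.0519% of all probe sets did. In unsorted protoplasts, which were labelled by the one-cycle protocol and fitted separately, HHO1 stood at 1.57 (SE 0.333, adjusted p = 0.4) and PGM at 0.99 (SE 0.511, adjusted p = 1). None of 20236 probe sets passed there (0%), with 450 at an unadjusted p under 0.05. RCA stood at 0.26 in protoplasts, PRK at 0.24, SBPASE at -0.04 and PSAE-1 at 0.15.

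**Figure D4:**
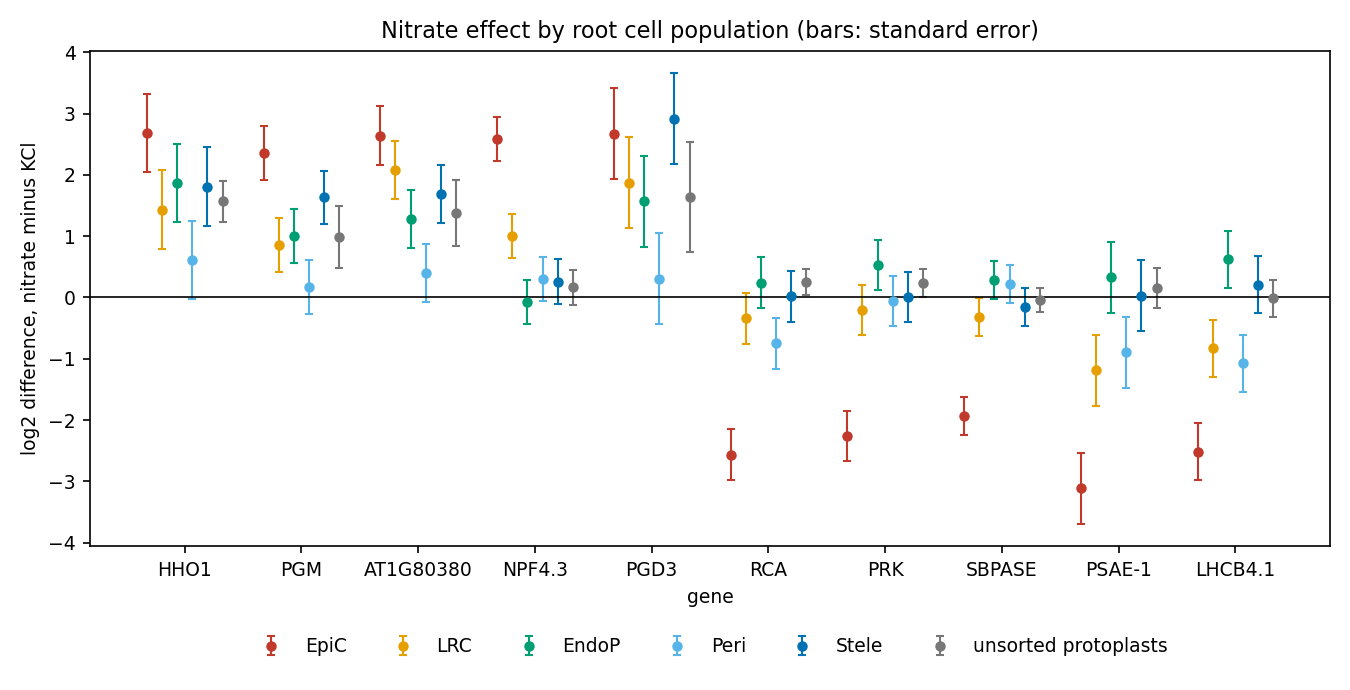
Log2 difference of nitrate (6 arrays) minus KCl (3 arrays), on the vertical axis, with its standard error as bars, for 10 genes (horizontal axis) in EpiC and 4 other sorted populations and in unsorted protoplasts. EpiC, in red, is the highest point for HHO1, PGM, AT1G80380 and NPF4.3 and the lowest for the 5 photosynthesis genes, while Stele, at 2.91, is above EpiC for PGD3. All but PGD3 meet the rule that names genes by their EpiC difference, which favours an extreme place for EpiC.

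Levels were then compared between the populations. NPF4.3 read 6.39 ± 0.297 (SD, n = 3) in EpiC in KCl, close to 6.37 ± 0.155 in LRC, while EndoP, Peri and Stele read 8.54, 8.78 and 8.79. EpiC was thus lower than the mean of the other 4 by 1.73 (adjusted p = 0.00109). In nitrate EpiC read 8.97 ± 0.206 (n = 6), beside 8.46 in EndoP, 9.08 in Peri, 9.04 in Stele and 7.38 in LRC, and the difference from the other 4 was 0.48 (adjusted p = 0.137). HHO1 read highest in LRC in both treatments, at 8.99 in KCl and 10.4 in nitrate, and EpiC stood at -0.72 (adjusted p = 0.467) and 0.53 (adjusted p = 0.379) against the other 4.

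RCA read 9.83 ± 0.363 (n = 3) in EpiC in KCl, above 7.83 in LRC, 6.70 in EndoP, 7.85 in Peri and 6.37 in Stele. In nitrate it read 7.27 ± 0.698 (n = 6) in EpiC, within the span of 6.39 in Stele to 7.496 in LRC. Over the 12 photosynthesis genes EpiC averaged 8.82 ± 0.438 in KCl and 6.65 ± 0.392 in nitrate, LRC 7.64 and 7.06, EndoP 6.63 and 6.81, Peri 7.47 and 7.06 and Stele 6.38 and 6.24. In KCl the 4 genes for carbon fixation and the ATP synthase were all higher in EpiC, with a median of 2.31 against the mean of 4 others, as were 4 of the 8 for photosystems and light harvesting. Over all probe sets tested 4.25% differed in that comparison, and 2.82% were higher in EpiC. In nitrate none of the 12 differed past the threshold, where 20.1% of all probe sets did, and the medians were 0.14 and -0.35. These comparisons use the same EpiC arrays as the nitrate effect and are no separate evidence for it. Their counts over all probe sets moved with single arrays, from 818 in KCl to 328, 140 and 199 without KCl replicate 1, 2 and 3, and from 3878 in nitrate to 1483, 2425, 2040 and 1870 without transitory replicate 2 or 3 or continuous replicate 1 or 2. In the pooled comparison within each other population, 0 of these 12 genes passed in LRC, EndoP, Peri or Stele, where 0.0156%, 0%, 23.4% and 0.0519% of all probe sets did.

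**Figure D5:**
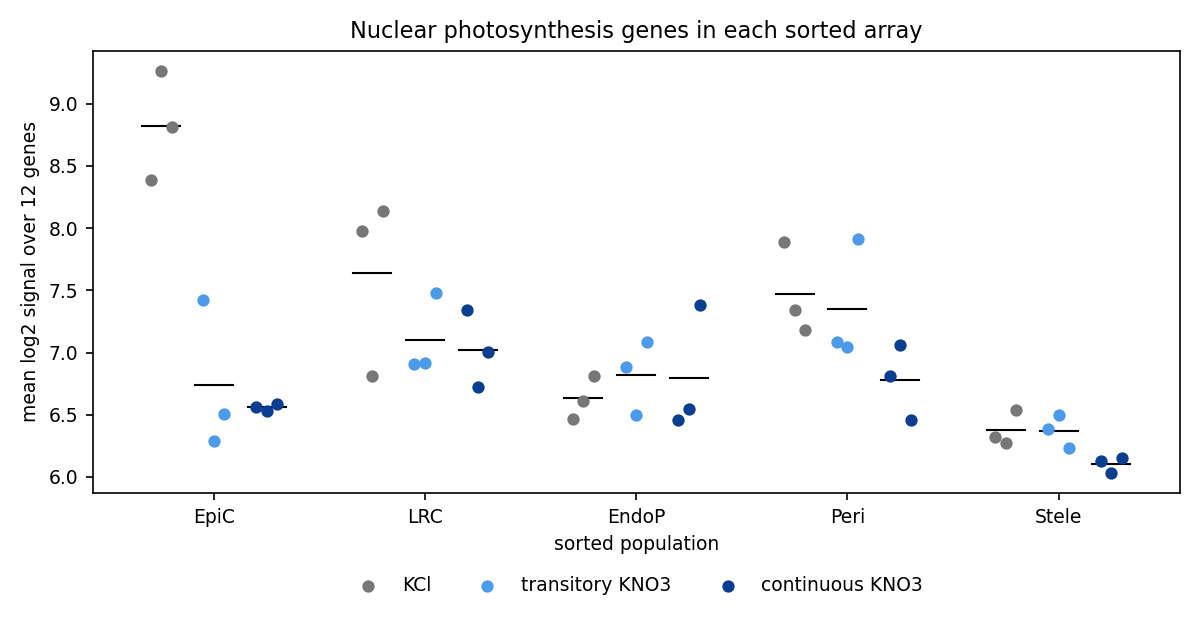
Mean quantile-normalized log2 signal over 12 nuclear photosynthesis genes (vertical axis) on each sorted array of the 5 populations (horizontal axis), in grey for KCl, light blue for transitory and dark blue for continuous nitrate, with a black line at each group mean (n = 3). The 3 EpiC arrays in KCl, at 8.39 to 9.26, are above all other arrays, and the 6 in nitrate, at 6.29 to 7.42, lie among them.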

How the data were processed

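The deposited log2 signals per probe set, from the series matrix, were computed by the authors, with software, background correction and normalization not given in the sources used here. The 54 two-cycle arrays were quantile normalized together. The 30 one-cycle arrays were fitted separately as deposited, for the unsorted protoplasts. Probe sets above the 40th percentile in at least 3 arrays were kept, 19258 and 20236. limma 3.58.1 in R 4.3.3 (lmFit and eBayes with an intensity trend) was fitted to 18 groups of 3 sorted arrays, with contrasts for the pooled nitrate effect, for each treatment, between treatments, between EpiC and the mean of 4 other populations, and for the difference between responses. P-values were adjusted by Benjamini-Hochberg over all probe sets. The fit was tested on simulated data. Arrays have no read depth, and their number limits the precision.

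In the platform's annotation, 13513 of 22810 probe sets have 1 gene, 503 have several and 8794 have no gene, and 13436 of the 13513 matched RefSeq's gene table. Only probe sets with 1 gene are named. HHO2, HHO3, HHO5, NRG2 and the PGD isoforms carry a locus identifier alone there, and their names come from the gene lists. The same holds for the name glycerate kinase of AT1G80380. Genes named by rule had an adjusted p under 0.05 and all 6 nitrate arrays beyond all 3 KCl arrays, up to 12 with the largest difference in each direction and up to 12 more with a symbol. For the difference between responses up to 6 were taken in each direction, besides members of the lists and markers. The members and lists were chosen with earlier results of these data known.

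Same-numbered samples, as deviations from their group means, correlated over 0.1 in 6 of 9 pairs. For replicates 2 and 3 these correlations were 0.59 to 0.73, and for replicate 1 they were -0.11 to 0.06. The main fit did not use the numbers, and replicates 2 and 3 may share a source of spread that it ignores. The alternatives were the values as deposited, no filter on dim probe sets, no trend, array weights, a replicate block, only the EpiC arrays with nitrate as 2 groups or as 1, array signal or GAPDH difference as a covariate, and leaving out each EpiC array. Leaving out 2 arrays of other populations that stood apart was added after the data were seen.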

Additional observations from a re-analysis of the deposited data

Results flagged for a closer look

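In 5 of 52 genes examined, 1 of the 6 EpiC nitrate arrays stood apart from the other 5, by a gap past Dixon's 95% critical value, which chance gives in about 1 in 20 groups. Transitory replicate 1 was the highest nitrate array for 3 photosynthesis genes, with PSBW at 9.55 (next 7.71), RCA at 8.62 (next 7.26) and PSBY at 6.85 (next 6.04). Continuous replicate 3 was the lowest for NRG2, at 7.54 (next 8.42), and transitory replicate 2 for SUFE2, at 6.83 (next 7.44).

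In 8 genes named by rule or list the EpiC response to nitrate differed from the mean response of the other 4 populations by limma's test of that difference. NPF4.3 responded more in EpiC by 2.21 (adjusted p = 0.011). The difference was -3.19 for AT1G66100 (0.000848), -2.83 for AT2G26500 (0.0309), -2.36 for RCA (0.0257), -2.32 for PRK (0.0257), -2.12 for ATPC1 (0.04), -2.1 for AT3G47070 (0.0309) and -1.94 for SBPASE (0.011).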

How the results depend on the processing

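No called result changed direction under the alternatives run. Of the 27 genes named by rule and called in the pooled comparison, 15 passed in all 19 alternatives. Of all called probe sets with 1 gene, 7 of the 11 that rose and 12 of the 28 that fell did so. Without KCl replicate 2, 11 of the 27 lost the call, and without KCl replicate 3, 9 of the 27 did. Leaving out 1 EpiC array gave counts of 52 to 121 for pooled nitrate, 25 to 99 for continuous, 0 to 67 for transitory, 0 for continuous against transitory, 1 to 47 for the difference between responses, 140 to 828 for EpiC against the others in KCl and 1483 to 4403 in nitrate. Array weights gave 316 for pooled nitrate, 1473 for continuous, 98 for the difference between responses, 7228 in KCl and 8688 in nitrate. The replicate block was fitted to fewer arrays, so that both choices changed at once. On the EpiC arrays it gave 247 for pooled, 280 for continuous and 135 for transitory nitrate, where those arrays without it gave 106, 92 and 61, and it called HHO2 (0.0413) and HHO3 (0.041). On the KCl and nitrate arrays of the 5 populations it gave 58 for the difference between responses, 221 in KCl and 597 in nitrate, where those arrays without it gave 46, 667 and 3480. In the check of pairing, replicates 2 and 3 correlated best with their own number and replicate 1 did not, 6 of 9 pairs in all. The values as deposited gave 21 for transitory nitrate. Leaving out the 2 arrays that stood apart gave 1425 in KCl. With only the EpiC arrays 47 of 106 calls in pooled nitrate were rises, and 55 of 131 with nitrate as 1 group. With array weights 140 of 316 were rises, as were 799 of 1473 in continuous and 19 of 45 in transitory nitrate, and 26 of 98 differences between responses were positive. As deposited, 1169 probe sets were higher and 3755 lower in EpiC in nitrate, against 2170 and 1708, and 359 and 371 in KCl, against 543 and 275. The median over all probe sets was then -0.225 and -0.14. The cause of these changes was not tested.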
